A study of Mus musculus with 6 samples.

Results

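The genes described here are regulators of the BCL2 family, the proteins that decide whether the outer membrane of the mitochondrion stays intact. They were listed by name and by no cut-off on a measured value, but with earlier results of these data known. The list holds 3 prosurvival genes (Bcl2, Bcl2l1 and Mcl1), 2 effectors (Bax and Bak1) and 5 genes of the BH3-only class (Bad, Bid, Bcl2l11, Bbc3 and Pmaip1). Of these 10 genes, 9 were measured, among 19937 genes with a probe set of their own on the array, and each of the 9 was represented by 1 probe set. Bax had no probe set annotated to it and is not analysed here.

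RNA came from mammary epithelial organoids, small clumps of gland freed by enzymes and grown in growth factor-reduced Matrigel, a basement membrane gel. The organoids of both groups were from age-matched female mice of strain FVB that carry ErbB3 DOX-KO, a knockout of the receptor gene Erbb3 that doxycycline switches on. One group was cultured for 14 days with 5 µM doxycycline (DOX) and the other for 14 days without it, and each group had 3 arrays described as biological replicates. Whether each replicate came from a different animal, which promoter drives the inducible knockout and which exons it removes are not given in the labels. Organoids that lack the knockout allele and received the drug are not among the 6 samples, so an effect of the drug and an effect of the knockout cannot be told apart.

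In mammals the prosurvival proteins bind and restrain the effectors BAX and BAK, which otherwise open pores in the mitochondrial outer membrane and release cytochrome c. BH3-only proteins carry signals of stress or of lost growth factor to this switch, either by occupying the prosurvival proteins or by activating the effectors directly. In the mouse mammary gland BIM, the product of Bcl2l11, takes part in clearing cells from the lumen of growing ducts, and MCL1 is needed for the survival of milk-producing epithelium. ERBB3, paired with ERBB2, is a strong activator of PI3K and AKT, and AKT restrains the BH3-only protein BAD directly and Bcl2l11 transcription through FOXO factors.

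Values are the authors' log2 expression summaries, so a difference of 1 is a 2-fold difference. One array, DOX replicate 2, differed from the rest of the set. Across genes it correlated with the other arrays at 0.816 to 0.865, while those 5 correlated with each other at 0.963 or more, and genes in the top 10% step of control level read a median of 1.59 below the control mean on it (level minus control mean −1.59). The targeted gene Erbb3 gave no lower level under DOX, at 10.36, 9.31 and 9.82 in DOX replicates 1, 2 and 3 against 9.78, 9.71 and 9.69 in control replicates 1, 2 and 3 (limma log2 difference 0.10, SE 0.29, adjusted p = 0.845). Without DOX replicate 2 Erbb3 differed by 0.37 (SE 0.15, limma adjusted p = 0.105). A whole-transcript probe set is no clean check of an exon deletion, and directions below follow the labels, in which each culture is called DOX or control. Each of the 9 members is given both with all 6 arrays and with the 5 arrays that remain without DOX replicate 2, a fit with 2 arrays labelled DOX and 3 control arrays.

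Among the 9 measured BCL2 family genes, Bcl2l11 was higher and Bak1 and Bad were lower in the arrays labelled DOX when DOX replicate 2 was left out, and with all 6 arrays none passed. Bcl2l11 was 1.90-fold higher, Bak1 1.49-fold lower and Bad 1.55-fold lower in the 5-array comparison. The 3 prosurvival genes differed by 0.02 to 0.15 on the log2 scale in that comparison, and none of the 3 passed. With all 6 arrays, limma called 0 of 9 members at an adjusted p under 0.05, and 2 of 9, Bak1 and Bad, had an unadjusted p under 0.05. The same fit called 2.38% of all genes after adjustment (0.12% higher and 2.26% lower), and 14% had an unadjusted p under 0.05. The 5-array fit called 3 of 9 members, beside 26.6% of all genes, of which 12.3% of genes were higher and 14.3% lower. That share is near the background, so the number of members called is not a result about the family, and the account below is of the single genes. The median log2 difference of the 9 members was −0.51 with 6 arrays and −0.05 with 5, beside 0.02 and 0.01 over all genes.

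**Figure D1:**
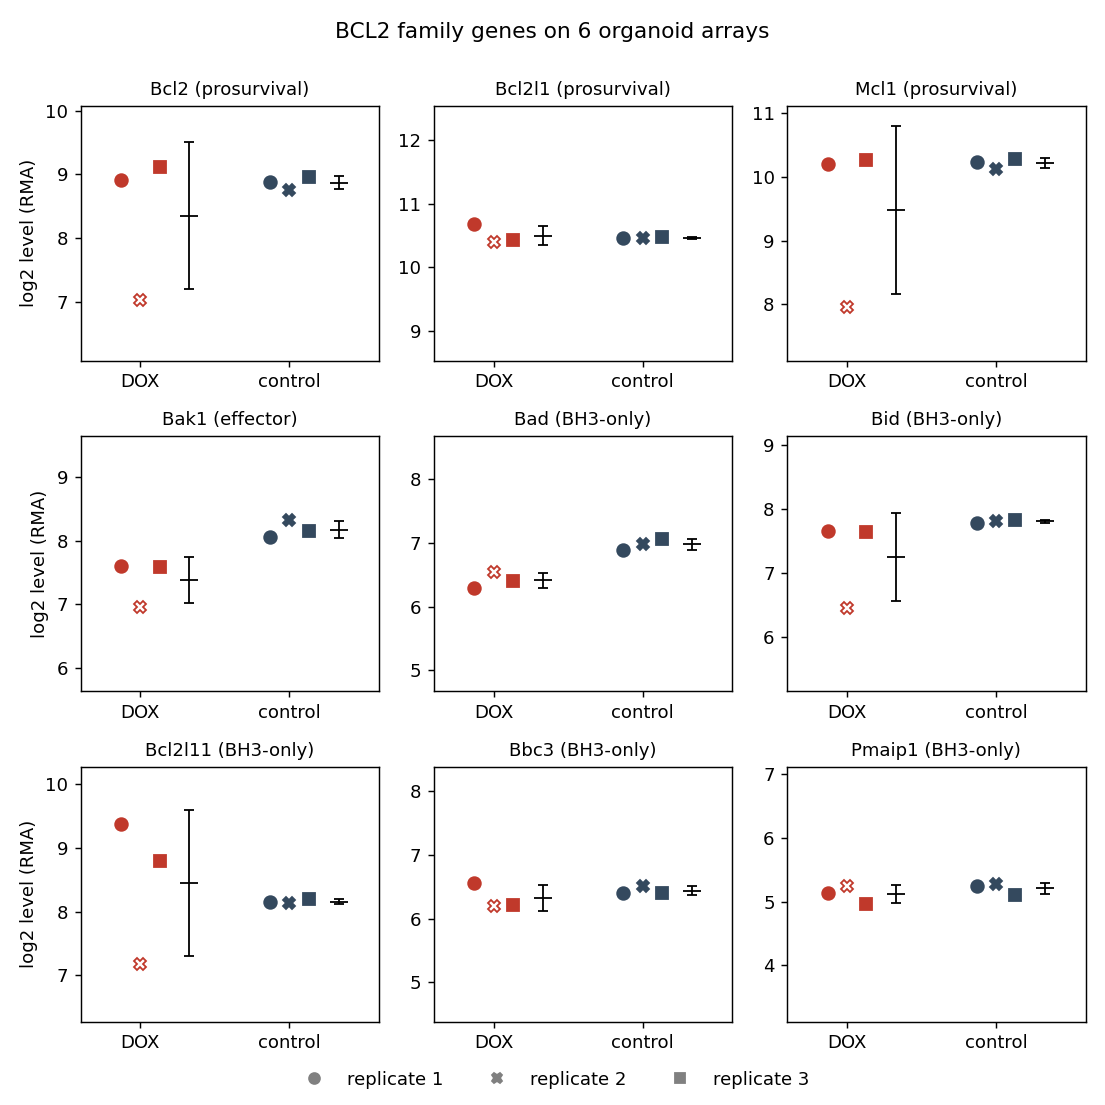
Log2 level of each of the 9 measured genes on the 3 arrays labelled DOX (red, left) and the 3 control arrays (dark, right), every panel spanning the same range; marker shapes give the replicate number, DOX replicate 2 is open, and black bars are mean ± SD (n = 3 each). Bak1, Bad and Bid lie below control on all 3 arrays labelled DOX, and Bcl2l11 lies above control on DOX replicates 1 and 3 and below it on DOX replicate 2.

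None of the 3 prosurvival genes passed in either fit. Bcl2, the founding member of the family, read 8.91, 7.03 and 9.12 in DOX replicates 1, 2 and 3, against 8.87, 8.76 and 8.96 in control replicates 1, 2 and 3. The groups overlapped, and the low mean of the group labelled DOX came from replicate 2 alone. The log2 difference was −0.51 with 6 arrays (95% confidence interval −1.81 to 0.79, limma adjusted p = 0.617) and 0.15 with 5 arrays (−0.12 to 0.42, limma adjusted p = 0.413), and the sign of its difference depended on that array.

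Mcl1, whose short-lived product guards epithelial cells against BIM and BAK, behaved in the same way on the arrays. It read 10.21, 7.95 and 10.27 in DOX replicates 1, 2 and 3, against 10.23, 10.13 and 10.28 in control replicates 1, 2 and 3. DOX replicates 1 and 3 lay within the range of the control arrays. Its log2 difference was −0.74 with 6 arrays (95% confidence interval −2.21 to 0.73, limma adjusted p = 0.54) and 0.02 with 5 arrays (−0.22 to 0.27, limma adjusted p = 0.914).

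Bcl2l1, which encodes BCL-XL, spread less over the arrays labelled DOX (SD 0.15, n = 3) than Bcl2 and Mcl1 (SD 1.15 and 1.32). It read 10.68, 10.40 and 10.43 in DOX replicates 1, 2 and 3, against 10.46, 10.46 and 10.47 in control replicates 1, 2 and 3. The groups overlapped, with DOX replicate 1 the highest of the 6 arrays. Between groups it differed by 0.04 on the log2 scale with 6 arrays (95% confidence interval −0.37 to 0.45, limma adjusted p = 0.91) and 0.09 with 5 arrays (−0.17 to 0.35, limma adjusted p = 0.64). On DOX replicate 2 Bcl2l1 lay only 0.07 below the control mean (difference −0.07), whereas Mcl1, in the same 10% step of control level, lay at −2.26 and the median gene of that step at −1.59.

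Bak1 encodes BAK, an effector that sits in the mitochondrial membrane. It read 7.60, 6.96 and 7.59 in DOX replicates 1, 2 and 3, against 8.05, 8.32 and 8.15 in control replicates 1, 2 and 3. All 3 arrays labelled DOX lay below all 3 control arrays, as for 3 of the 9 members (Bak1, Bad and Bid) and for 20.3% of all genes (11.7% lay wholly above control and 32% did not overlap in either direction). Bak1 differed by a log2 value of −0.79 with 6 arrays (SE 0.24, 95% confidence interval −1.36 to −0.22, limma adjusted p = 0.203) and −0.58 with 5 arrays (SE 0.12, 95% confidence interval −0.84 to −0.31, limma adjusted p = 0.00452). A two-sided exact permutation test over the 6 arrays gave p = 0.1, the smallest that 3 against 3 arrays allow. Every gene whose groups do not overlap gets this p, Bad and Bid included, so for Bak1 it only restates the non-overlap. DOX replicates 1 and 3 agreed closely, at −0.58 each from the control mean, and DOX replicate 2 lay at −1.22, beside a median of −1.36 for genes of its step of control level on that array.

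**Figure D2:**
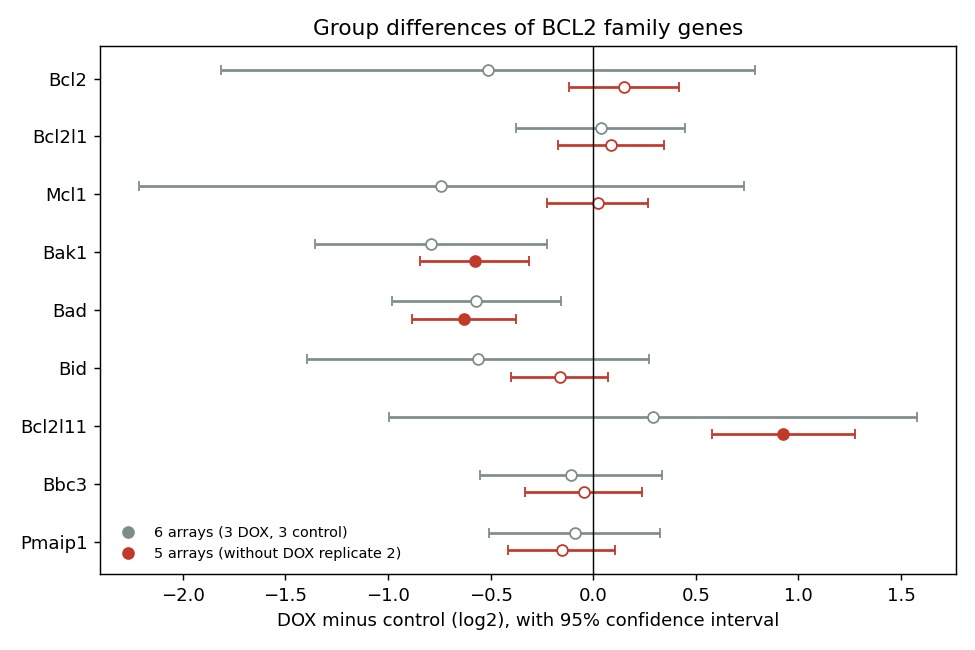
Log2 difference, arrays labelled DOX minus control, for each gene with its 95% confidence interval from limma, with 6 arrays (grey) and with 5 arrays without DOX replicate 2 (red); filled points have an adjusted p under 0.05. The filled points are Bcl2l11 at 0.93, Bak1 at −0.58 and Bad at −0.63, all in the 5-array fit.

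Among the BH3-only genes, Bad was lower and Bcl2l11 higher in the 5-array fit, and the other 3 did not pass in either fit. Bad encodes the BH3-only protein that AKT phosphorylates and thereby keeps away from BCL-XL. Bad read 6.29, 6.54 and 6.41 in DOX replicates 1, 2 and 3, against 6.89, 6.99 and 7.06 in control replicates 1, 2 and 3. The 2 groups did not overlap, and of the 3 members that were lower on all 3 arrays labelled DOX it spread the least there (SD 0.12, n = 3). Its log2 difference was −0.57 with 6 arrays (SE 0.17, 95% confidence interval −0.98 to −0.16, limma adjusted p = 0.206) and −0.63 with 5 arrays (SE 0.11, 95% confidence interval −0.88 to −0.38, limma adjusted p = 0.00202). The exact permutation p over 6 arrays was 0.1, again the smallest possible (two-sided). On DOX replicate 2 Bad lay at −0.44 from the control mean, where the median gene of its step lay at −0.75.

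Bcl2l11 encodes BIM, which binds all the main prosurvival proteins and can activate BAX and BAK. It read 9.38, 7.18 and 8.79 in DOX replicates 1, 2 and 3, against 8.14, 8.13 and 8.20 in control replicates 1, 2 and 3. DOX replicates 1 and 3 lay above every control array and DOX replicate 2 below every control array. On the log2 scale Bcl2l11 differed by 0.29 with 6 arrays (SE 0.54, 95% confidence interval −0.996 to 1.58, limma adjusted p = 0.771) and 0.93 with 5 arrays (SE 0.16, 95% confidence interval 0.58 to 1.27, limma adjusted p = 0.00138). In the 5-array comparison the 2 groups did not overlap for 4 of 9 members (Bcl2l11 above, and Bak1, Bad and Bid below control), beside 51.6% of all genes (25.4% above and 26.2% below). On DOX replicate 2 Bcl2l11 lay at −0.98 from the control mean, and the median gene of its step lay at −1.06. With DOX replicate 1 left out in place of replicate 2, the log2 difference was −0.17 (limma adjusted p = 0.806). The 5-array increase rests on 2 arrays, which themselves differed by more than the control arrays did (SD 0.41, n = 2, against SD 0.04, n = 3).

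All 5 promoters that the table holds for the 3 genes called in the 5-array fit are given because these genes moved, with Bcl2l11 opposite in direction to Bak1 and Bad. The sequences are from RefSeq on mouse build GRCm38.p6, cover 250 bases before to 50 after a transcript start, and run 5′ to 3′ along the gene. The motif search covered 15 promoters of 9 of the 10 genes. Pmaip1 was not part of the search, so nothing is said here about its promoter. Capitals mark matches on either strand to GTAAACA (forkhead, the family of the FOXO factors) and GGGCGG (Sp1), the only ones of the 8 motifs searched with a match in these 5 windows.
Bcl2l11, start 1 (chr2:128125788-128126087, + strand): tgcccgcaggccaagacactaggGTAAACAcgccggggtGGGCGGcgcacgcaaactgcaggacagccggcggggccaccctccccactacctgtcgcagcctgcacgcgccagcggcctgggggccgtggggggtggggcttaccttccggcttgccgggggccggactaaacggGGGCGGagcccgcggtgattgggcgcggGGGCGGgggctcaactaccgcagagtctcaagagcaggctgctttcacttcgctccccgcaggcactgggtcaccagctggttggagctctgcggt
Bcl2l11, start 2 (chr2:128127325-128127624, + strand): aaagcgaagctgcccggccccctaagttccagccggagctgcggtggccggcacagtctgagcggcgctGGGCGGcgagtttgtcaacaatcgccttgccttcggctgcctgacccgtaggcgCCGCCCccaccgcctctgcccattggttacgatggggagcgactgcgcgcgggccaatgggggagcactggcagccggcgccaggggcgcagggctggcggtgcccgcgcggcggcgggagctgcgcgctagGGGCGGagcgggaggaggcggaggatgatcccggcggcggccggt
Bak1 (chr17:27028578-27028877, − strand): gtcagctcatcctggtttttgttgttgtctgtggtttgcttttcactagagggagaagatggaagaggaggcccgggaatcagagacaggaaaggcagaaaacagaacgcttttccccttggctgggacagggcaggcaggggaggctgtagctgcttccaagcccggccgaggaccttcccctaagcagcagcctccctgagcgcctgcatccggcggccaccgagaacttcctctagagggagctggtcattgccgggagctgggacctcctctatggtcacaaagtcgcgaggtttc
Bad, start 1 (chr19:6941611-6941910, + strand): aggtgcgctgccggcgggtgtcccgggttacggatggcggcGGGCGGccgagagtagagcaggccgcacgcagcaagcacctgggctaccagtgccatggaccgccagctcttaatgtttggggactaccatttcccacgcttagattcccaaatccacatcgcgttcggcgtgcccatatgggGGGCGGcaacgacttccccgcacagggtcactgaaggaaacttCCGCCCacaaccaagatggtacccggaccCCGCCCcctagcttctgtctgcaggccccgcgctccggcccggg
Bad, start 2 (chr19:6942312-6942611, + strand): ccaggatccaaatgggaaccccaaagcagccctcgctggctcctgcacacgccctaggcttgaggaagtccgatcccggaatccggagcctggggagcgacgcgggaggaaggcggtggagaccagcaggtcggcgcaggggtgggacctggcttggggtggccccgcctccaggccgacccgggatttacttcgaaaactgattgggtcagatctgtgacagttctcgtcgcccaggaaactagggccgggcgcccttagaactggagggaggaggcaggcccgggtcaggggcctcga
The first Bcl2l11 window held 1 forkhead match and 3 Sp1 matches, and the second held 3 Sp1 matches. The Bak1 window held 0 matches. The first Bad window held 4 Sp1 matches, and the second held 0 matches to any motif searched. GTAAACA was present in 3.65% and GGGCGG in 35.7% of all 32851 promoters of the table. The forkhead letters were also found in a promoter of Bbc3, which did not pass in either fit. TGCAAT, a CHOP motif, was searched too and is in 8.4% of all promoters. The ATF4 motif TGATGCAA, which can overlap the CHOP motif, is in 0.895%, and the E2F motifs TTTCCCGC and TTTGGCGC are in 1.07% and 0.514%. The E-box CACGTG is in 7.15% of all promoters. The TATA box letters TATAAA are in 13.6%. These matches describe letters in a window and not bound sites.

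Bid, whose product is activated when caspase 8 cuts it and so links death receptors to mitochondria, was lower on every array labelled DOX but by a small amount on 2 of them. It read 7.66, 6.45 and 7.64 in DOX replicates 1, 2 and 3, against 7.79, 7.81 and 7.84 in control replicates 1, 2 and 3. Its log2 difference was −0.56 with 6 arrays (95% confidence interval −1.40 to 0.27, limma adjusted p = 0.467) and −0.16 with 5 arrays (−0.40 to 0.07, limma adjusted p = 0.3). The control arrays of Bid spread by an SD of 0.02 (n = 3), so the groups did not overlap although neither fit passed.

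Bbc3 and Pmaip1, the genes of PUMA and NOXA, are BH3-only targets of p53. Bbc3 read 6.57, 6.21 and 6.22 in DOX replicates 1, 2 and 3, against 6.40, 6.52 and 6.40 in control replicates 1, 2 and 3. Pmaip1 read 5.14, 5.24 and 4.97 in DOX replicates 1, 2 and 3, against 5.25, 5.27 and 5.10 in control replicates 1, 2 and 3. Both genes overlapped between groups. The log2 difference of Bbc3 was −0.11 with 6 arrays (95% confidence interval −0.55 to 0.33, limma adjusted p = 0.75) and −0.05 with 5 arrays (−0.33 to 0.24, limma adjusted p = 0.834). For Pmaip1 it was −0.09 with 6 arrays (95% confidence interval −0.51 to 0.33, limma adjusted p = 0.779) and −0.15 with 5 arrays (−0.41 to 0.11, limma adjusted p = 0.38). The level of Pmaip1 lay in the 4th of 10 steps of control level, toward the lower end of the scale, where such summaries can understate a difference.

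**Figure D3:**
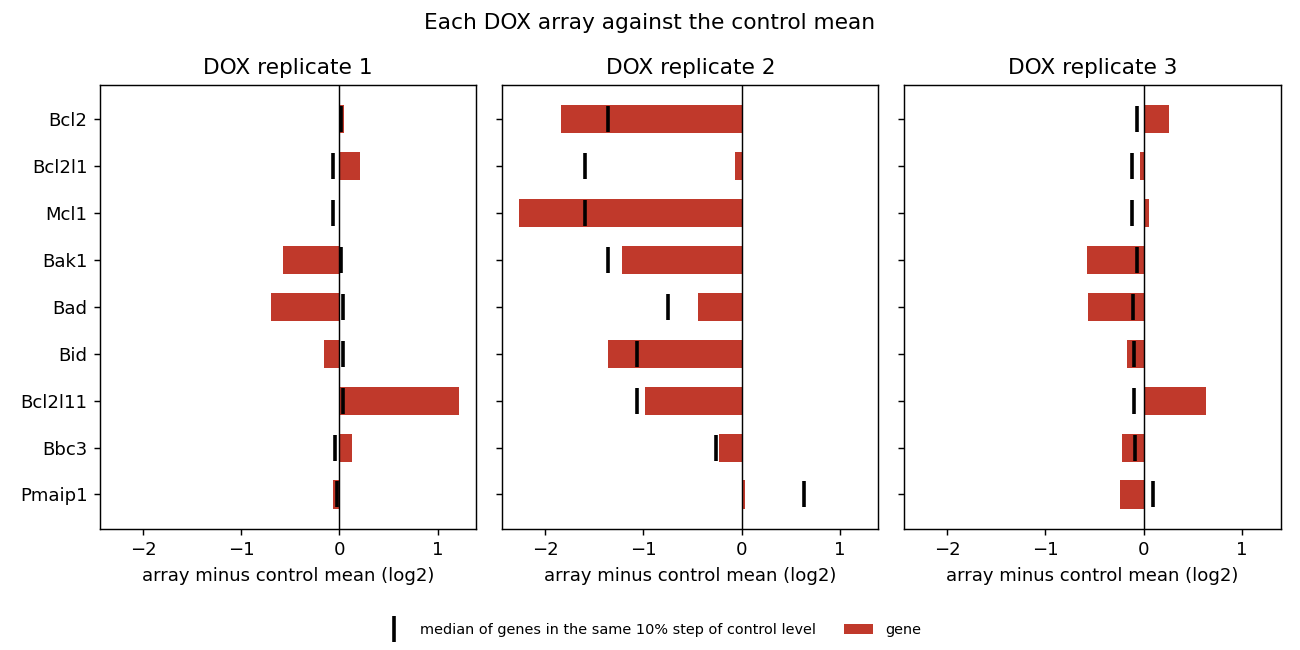
Log2 level of each gene on each array labelled DOX minus the control mean (red bars), with the median of all genes in the same 10% step of control level on that array (black ticks). On DOX replicate 2 the ticks run from 0.63 for Pmaip1 to −1.59 for Bcl2l1 and Mcl1; on DOX replicates 1 and 3 they stay between −0.12 and 0.09, and there Bcl2l11 stands at 1.22 and 0.63.

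Placeholder gene names were left out of a search for the genes most like Bcl2l11 over the 6 arrays. The nearest were Kdsr (an enzyme of sphingolipid synthesis), Ghr (the growth hormone receptor) and Lmbrd1 (a lysosomal membrane protein). Likeness was the Euclidean distance between log2 deviations from each gene's own control mean, which was 0.20 for each. Like Bcl2l11, the 3 genes were higher on DOX replicates 1 and 3 and lower on DOX replicate 2, which follows from how they were picked. Their 5-array log2 differences were 0.90, 0.93 and 1.01 (SE 0.14, 0.18 and 0.13).

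Among other members of the BCL2 family, 4 of 12 measured genes fell and 1 rose in the 5-array fit, where 14.3% of all genes fell and 12.3% rose. With 6 arrays limma called 0 of 12, and 1 had an unadjusted p under 0.05, beside 14% of all genes. Bmf, a BH3-only gene known from cells that lose attachment, fell: it read 6.84, 7.29 and 6.93 in DOX replicates 1, 2 and 3, against 7.58, 7.46 and 7.72 in control replicates 1, 2 and 3. All 3 arrays labelled DOX lay below control, with a log2 difference of −0.70 with 5 arrays (SE 0.12, limma adjusted p = 0.00148) and −0.57 with 6 (limma adjusted p = 0.278). Bcl2l2, the gene of the prosurvival protein BCL-W, rose by 0.51 with 5 arrays (SE 0.14, limma adjusted p = 0.0195). With 6 arrays it differed by 0.23 (limma adjusted p = 0.678), and on DOX replicate 2 it lay at −0.35 from the control mean. Bcl2l14 and Bcl2l13 fell by 0.54 and 0.41 with 5 arrays (limma adjusted p = 0.0231 and 0.0279), and differed by −0.33 and −0.98 with 6 (limma adjusted p = 0.516 and 0.413). Bcl2a1a, Bcl2a1b and Bcl2a1d had no probe set annotated to 1 of them alone and are not analysed here.

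Downstream of the mitochondrial switch, of 11 measured genes of the apoptosome, caspases and mitochondrial channels, 1 fell and 0 rose with 5 arrays (26.6% of all genes were called there), and 0 passed with 6 arrays (1 with an unadjusted p under 0.05). The one was Casp2, an initiator caspase, at −0.55 with 5 arrays (SE 0.12, limma adjusted p = 0.00745) and −0.96 with 6 (limma adjusted p = 0.314). Apaf1, the scaffold of the apoptosome, and Casp9, the caspase it activates, did not pass with 5 arrays (log2 differences 0.28 and −0.09, limma adjusted p = 0.0976 and 0.695) or with 6 (0.15 and −0.34, limma adjusted p = 0.681 and 0.53). Of 9 inhibitors of apoptosis (IAPs) and their mitochondrial antagonists, Birc5 fell in both fits. Birc5 encodes survivin, which also acts in mitosis, and read 5.23, 5.61 and 5.13 in DOX replicates 1, 2 and 3, against 6.92, 7.35 and 7.23 in control replicates 1, 2 and 3. Its log2 difference was −1.84 with 6 arrays (SE 0.22, limma adjusted p = 0.0104) and −1.98 with 5 arrays (SE 0.14, limma adjusted p = 2.33e-06). Birc6 rose by 0.50 with 5 arrays (limma adjusted p = 0.0398). With 6 arrays its sign turned, at −0.08 (limma adjusted p = 0.934), and on DOX replicate 2 it lay at −1.22 from the control mean.

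The death receptor pathway, which reaches the family through Bid, had 8 measured genes, of which 1 fell and 0 rose with 6 arrays, and 3 fell and 2 rose with 5 arrays. Over all genes 2.38% were called with 6 arrays and 26.6% with 5. Tnfrsf21, the gene of death receptor 6, fell in both fits and read 7.52, 6.38 and 7.77 in DOX replicates 1, 2 and 3, against 9.63, 9.53 and 9.79 in control replicates 1, 2 and 3. Its log2 difference was −2.43 with 6 arrays (SE 0.37, limma adjusted p = 0.0268) and −2.01 with 5 arrays (SE 0.13, limma adjusted p = 1.09e-06). Cflar, which encodes FLIP, a decoy that keeps caspase 8 from activation at death receptors, rose in the 5-array fit. Cflar read 9.57, 8.35 and 9.63 in DOX replicates 1, 2 and 3, against 8.39, 7.95 and 8.29 in control replicates 1, 2 and 3. DOX replicate 2 lay within the control range, and the log2 difference was 0.97 with 6 arrays (limma adjusted p = 0.322) and 1.39 with 5 arrays (SE 0.14, limma adjusted p = 3.51e-05). Tnfrsf1a, the main receptor for TNF, and Tradd, its adaptor, fell by 0.58 and 0.54 with 5 arrays (limma adjusted p = 0.00277 and 0.0115), and differed by −0.98 and −1.002 with 6 (limma adjusted p = 0.286 and 0.338).

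**Figure D4:**
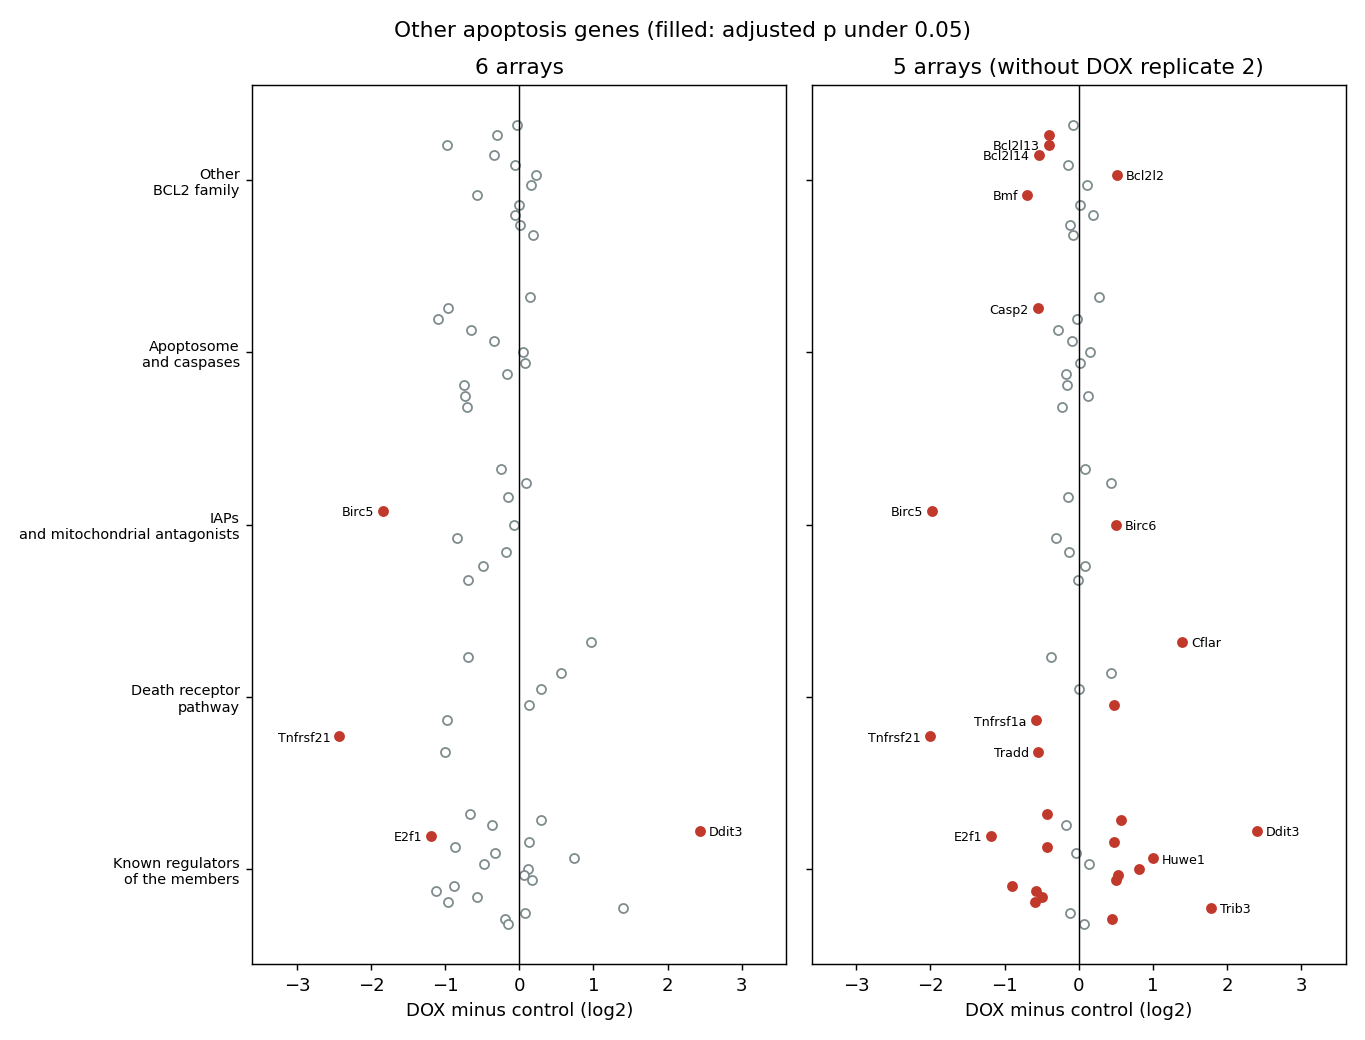
Log2 difference, arrays labelled DOX minus control, for the measured genes of 5 lists, with 6 arrays (left) and with 5 arrays without DOX replicate 2 (right); filled red points have an adjusted p under 0.05 and open points do not, and the vertical spread within a list only separates points. Birc5, Tnfrsf21, E2f1 and Ddit3 are filled in both panels.

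Of 21 measured regulators of the family, 1 rose and 1 fell with 6 arrays, and 9 rose and 7 fell with 5 arrays. Of all genes, 0.12% rose and 2.26% fell with 6 arrays, and 12.3% rose and 14.3% fell with 5. These regulators were listed with earlier results of these data known, so their share is no independent evidence. Ddit3 encodes CHOP, a stress factor known to induce Bcl2l11. It read 8.80, 8.85 and 8.73 in DOX replicates 1, 2 and 3, against 6.34, 6.38 and 6.34 in control replicates 1, 2 and 3, and rose in both fits (log2 differences 2.44 and 2.41, limma adjusted p = 0.00203 and 8.84e-08 with 6 and 5 arrays). Trib3, a stress-induced pseudokinase reported to bind AKT, rose by 1.79 with 5 arrays (SE 0.12, limma adjusted p = 1.61e-06) and did not pass with 6 (1.40, limma adjusted p = 0.129).

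E2f1, a cell cycle factor that can induce several BH3-only genes, fell in both fits (log2 differences −1.18 and −1.19, limma adjusted p = 0.02 and 3.48e-05 with 6 and 5 arrays). Huwe1, a ubiquitin ligase that marks MCL1 for destruction, rose by 1.00 with 5 arrays (SE 0.17, limma adjusted p = 0.00141) and differed by 0.74 with 6 (limma adjusted p = 0.337). Foxo3 and Foxo1, the FOXO genes tied to Bcl2l11, were not among the genes that rose: with 5 arrays Foxo3 differed by −0.04 (limma adjusted p = 0.841) and Foxo1 fell by 0.43 (limma adjusted p = 0.0277). With 6 arrays the 2 genes differed by −0.33 and −0.87 (limma adjusted p = 0.544 and 0.384). FOXO activity is set by phosphorylation and location in the cell, which these arrays do not measure. Trp53 had no probe set annotated to it alone and is not analysed here.

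Krt8, Krt18, Epcam and Cdh1, markers of luminal epithelium, lay in the top 10% step of control level, while the luminal marker Krt19 and 4 of 5 basal markers (Krt5, Krt17, Acta2 and Trp63) lay in the 4th step. Of 5 luminal markers, 2 (Krt8 and Krt18) were lower with 5 arrays, and 0 passed with 6 arrays in limma (2 with an unadjusted p under 0.05). The list's summed level, the log2 of its summed linear values, was 12.92 to 13.52 in arrays labelled DOX against 14.02 to 14.05 in control arrays. That sum is weighted to its highest genes, Krt8 and Krt18 (control means 12.52 and 12.64), and the 12.92 is from DOX replicate 2. Epcam, Cdh1 and Krt19 passed in neither fit (5-array log2 differences −0.28, −0.07 and −0.10). Of 5 basal and myoepithelial markers, 1 (Krt14) fell with 5 arrays and 0 passed with 6 in limma (1 with an unadjusted p under 0.05), and the summed level was 7.45 to 8.13 in arrays labelled DOX against 7.80 to 7.97 in control arrays. Summed immune markers read 8.48 to 8.78 in arrays labelled DOX against 7.99 to 8.12 in control arrays, but not through the same genes. Cd68 was highest on DOX replicates 1 and 3, and Cd3e on DOX replicate 2 (7.06, against 5.39 to 5.85 in control). On DOX replicate 2 the fibroblast, adipocyte and endothelial sums were 8.52, 7.55 and 7.53. In control arrays they were at most 7.80, 6.91 and 6.64. Most of these markers lay in steps 1 to 4 of control level, where the median gene on DOX replicate 2 lay 0.63 to 0.93 above the control mean. Col1a1 and Col1a2 lay in step 6, where that median was −0.26. The part of this array-wide shift in the 3 sums was not tested. With 5 arrays 2 of 5 measured immune markers, Cd68 and Ptprc, were higher, whereas limma called 0 with 6 (1 with an unadjusted p under 0.05). Over all genes, 26.6% were called with 5 arrays (12.3% higher and 14.3% lower). With 6 arrays 2.38% were called, and 14% had an unadjusted p under 0.05. Beside these shares, the counts in lists of 5 markers are no result about a cell type. Cd68, a lysosomal protein gene that macrophages express strongly, read 8.32, 6.72 and 8.29 in DOX replicates 1, 2 and 3, against 7.25, 7.19 and 7.43 in control replicates 1, 2 and 3, high and low on the same arrays as Bcl2l11. On DOX replicate 2 Cd68 lay at −0.57 from the control mean, where the median gene of its step lay at −0.75. Ptprc, the defining immune marker, read 4.77 to 5.28 in arrays labelled DOX, above the 4.41 to 4.599 of control arrays (5-array log2 difference 0.38, limma adjusted p = 0.0358). The macrophage genes Adgre1 and Lyz2 did not pass. Of the fibroblast, adipocyte and endothelial markers, 5 each, 0 passed in limma in either fit, and 0 had an unadjusted p under 0.05. The part of these markers in the differences of Bcl2l11, Bak1 and Bad was not tested, and in bulk RNA fewer cells of a type and less RNA per cell cannot be told apart.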

How the data were processed

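RNA of 6 organoid cultures was measured on 1-colour Affymetrix mouse arrays. The authors deposited log2 values per probe set, and per the submitters' processing notes they were made with RMA and the affy package, with no versions given. Column quartiles still differed between arrays (25th percentile 4.83 in DOX replicate 2 against 4.10 to 4.29 elsewhere), and the table was used as deposited. RMA gives no detection calls, and precision is limited by how few arrays there are.

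Of 34760 probe sets, 21640 carried 1 gene symbol in the platform annotation, 1321 several and 11799 none. Where a gene had several single-symbol probe sets, the one whose 6-array mean was highest stood for it, giving 19937 genes. Groups came from the sample titles and were tested two-sided in limma 3.58.1 (R 4.3.3) by lmFit and eBayes without covariates, with Benjamini-Hochberg adjustment over all genes and a threshold of 0.05. The member rule itself asks for a repeat without DOX replicate 2. P-values measure the spread between these cultures. Deviations of same-numbered arrays from their group means correlated positively but weakly (0.117, 0.194 and 0.0852). The design names no pairing, so numbers were not taken as pairs.

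The members, lists and alternatives were chosen with earlier results of these data known. Named were all members and, per list, every gene past the threshold with 6 arrays and the 4 with the largest differences past it with 5. Other genes named, such as Apaf1, Casp9, the FOXO genes and the markers, were chosen after their values were seen. The fit was tested on simulated data.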

Additional observations from a re-analysis of the deposited data

How the results depend on the processing

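With 5 arrays, all 13 alternatives run (each other array left out, replicate block, second quantile normalization, median centring, cyclic loess, the lowest 25% of genes left out, mean over probe sets, trend and robust variance, array weights) called Bcl2l11 (0.63 to 1.22), Bak1 (−0.64 to −0.44) and Bad (−0.69 to −0.50) and no other member. Leaving out DOX replicate 1 or 3 there leaves 1 array labelled DOX, whose spread is assumed to be that of the control group. Each member had 1 probe set, so the mean over probe sets could not change its difference. The 25% filter and the trend and robust variance could not either, and only its error could move. The replicate block gave the same 5-array differences as leaving out control replicate 2 (0.91 for Bcl2l11, −0.50 for Bak1 and −0.63 for Bad). These settings are no separate checks of a difference. With 6 arrays the number of members called was 0 to 3 when 1 array was left out (3 without DOX replicate 2), 3 with array weights, and 0 under every other alternative, the replicate block included. Cyclic loess brought Bcl2l11 to 0.68 (limma adjusted p = 0.141) and Bcl2l1 to 0.42 (limma adjusted p = 0.412). The cause of these shifts was not tested.

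Signs turned for members that had not passed. With 6 arrays, leaving out 1 array gave −0.90 to 0.15 for Bcl2, −0.052 to 0.088 for Bcl2l1, −1.13 to 0.021 for Mcl1 and −0.17 to 0.926 for Bcl2l11, the turned signs coming without DOX replicate 2 (Bcl2 and Mcl1) or without DOX replicate 1 (Bcl2l1 and Bcl2l11). Array weights gave 0.19 for Bcl2 and 0.011 for Mcl1. With 5 arrays, leaving out 1 array gave −0.038 to 0.21 for Bcl2l1, −0.021 to 0.055 for Mcl1 and −0.22 to 0.13 for Bbc3. The replicate block gave −0.021 for Mcl1, and median centring 0.087 for Bbc3. The block changed no call on a member; over all genes it gave 3 higher and 159 lower with 6 arrays, against 24 and 450 without it. Over all genes with 6 arrays, a second quantile normalization gave 185 higher and 626 lower, cyclic loess 557 and 1197, and array weights 3642 and 3752. Median centring moved the 5-array median of all genes to 0.14 and its calls to 4568 higher and 2088 lower, against 2454 and 2855.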

Other observations

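Casp6, an executioner caspase, was chosen after its values were seen. It read 7.90, 4.65 and 7.85 in DOX replicates 1, 2 and 3, against 7.98, 7.77 and 7.93 in control replicates 1, 2 and 3. Its log2 difference was −1.09 with 6 arrays (limma adjusted p = 0.523) and −0.02 with 5 arrays (limma adjusted p = 0.931).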
